A study of Mus musculus with 11 samples.

Results

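The genes described here encode the mitochondrial respiratory chain. They were chosen by name, as the genes whose platform symbol starts with Nduf, Uqcr, Atp5, Cox4, Cox5, Cox6, Cox7 or Cox8 or is Sdha, Sdhb, Sdhc, Sdhd, Cyc1 or Cycs, and which have a feature in both deposited tables. This gave 87 of the 16351 genes that the tables share. Sorted by symbol, 35 were counted with complex I, 4 with complex II, 9 with complex III, 17 with complex IV and 17 with complex V (ATP synthase). Of the rest, 1 is cytochrome c and 4 are complex I assembly factors. By this sorting Ndufa4 was counted with complex I and Cox7a2l with complex IV. A further 6 genes fit the names but lie in 1 table only.

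The respiratory chain moves electrons from NADH (complex I) and succinate (complex II) through complex III and cytochrome c to oxygen at complex IV. The proton gradient this makes drives complex V. All genes here are nuclear; the subunits encoded by mitochondrial DNA carry other symbols. Several complex IV subunits exist as a ubiquitous form and a form of heart and skeletal muscle, or of testis, encoded by separate genes. Tissues rich in mitochondria, such as heart, skeletal muscle and brown fat, carry much of this RNA.

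Tumour RNA was measured on 2-colour arrays against a whole mouse reference RNA. There were 5 tumours from DMBA-treated MMTV-Neu+/- mice and 6 tumours from untreated MMTV-Neu+/- mice. DMBA (dimethylbenzanthracene) is a polycyclic carcinogen, and every animal of both groups carries the Neu transgene, named for the mouse mammary tumour virus promoter that drives it in mammary epithelium. The labels used here give no DMBA dose, age, interval or count of animals, so the p-values measure only the spread between these samples. Tumours are numbered DMBA 1 to 5 and untreated 1 to 6, and a number only names a tumour.

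Each value is a log2 ratio of tumour over reference, so 0 means the level of the whole mouse pool and -1 means a level of 1 part in 2. The direction was read from organ genes. A liver list had array medians between -3.99 and -3.50 in the DMBA-treated and between -4.50 and -3.95 in the untreated tumours. A brain list had array medians of -3.16 to -1.85 in DMBA-treated and -2.49 to -1.65 in untreated tumours. Mammary epithelial markers were high, with 7 of 8 called higher in each group, a median of 2.91 in DMBA-treated and 2.39 in untreated tumours; the member not called was Cdh1 in DMBA-treated and Esrp1 in untreated tumours. All DMBA-treated tumours lie in 1 table and all untreated tumours in another, on different array designs, so treatment and table cannot be told apart and no test was made between the groups. In whole tumours, fewer cells of a type and less RNA per cell cannot be told apart either.

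The respiratory chain genes lay below the whole mouse reference in both groups. In DMBA-treated tumours (n = 5), 67 of the 87 were called lower at a limma adjusted p under 0.05, beside 31.7% of all 19087 genes tested, and 0 were called higher, beside 26.1% of all genes. At an unadjusted p under 0.05, 68 were lower and 1 was higher, beside 6405 lower and 5448 higher of all 19087 genes. Against a ratio of 1.5-fold, 26 were lower, beside 18.2% of all genes, and 0 higher. In untreated tumours (n = 6), 63 were called lower, beside 32.1% of all 16887 genes, and 0 higher, beside 28.8%. At an unadjusted p under 0.05 the untreated counts were 65 lower and 0 higher, beside 5701 lower and 5268 higher of all 16887 genes. Against 1.5-fold they were 21 lower, beside 16.3% of all genes, and 0 higher. The median of the 87 mean ratios was -0.67 in DMBA-treated and -0.58 in untreated tumours, while the median of all genes was -0.02 in DMBA-treated tumours and 0.00 in untreated tumours. Most of these ratios were small in size: 23 genes in DMBA-treated and 19 in untreated tumours were called lower with a mean of -1 or less, beside 18.8% of all genes in DMBA-treated and 15.6% in untreated tumours.

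**Figure D1:**
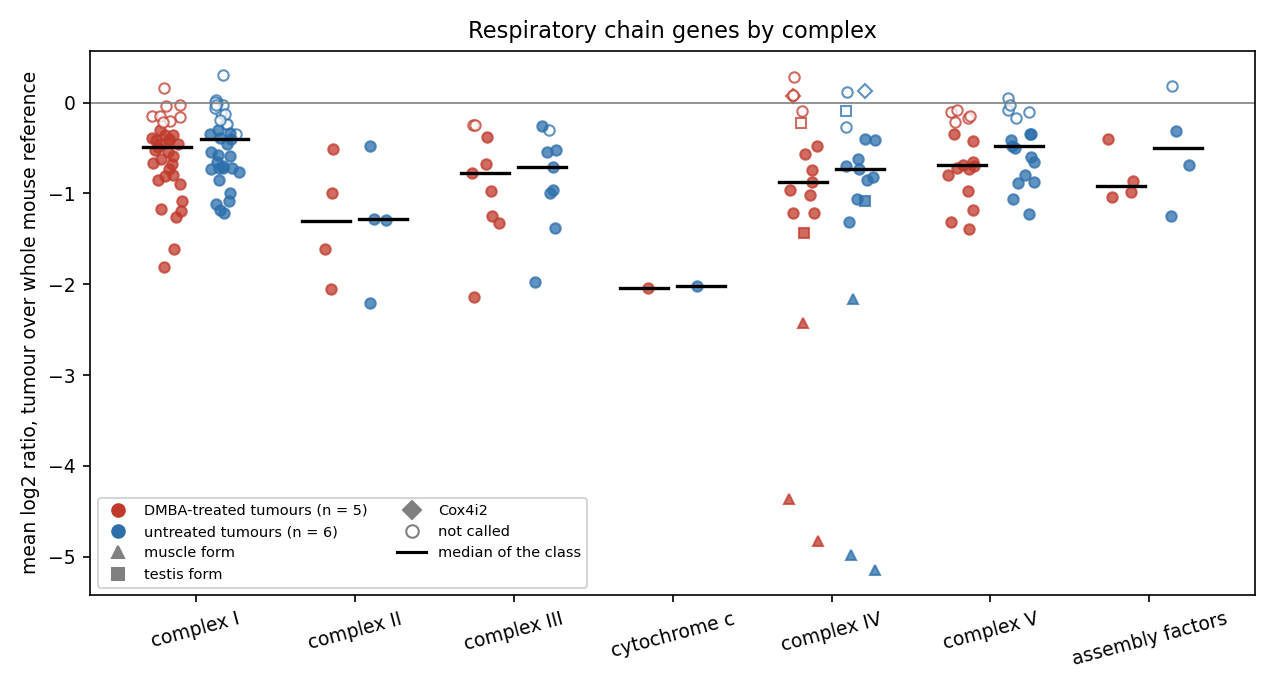
Mean log2 ratio of tumour over whole mouse reference (vertical axis) for each of the 87 genes, by complex, with DMBA-treated tumours in red left of untreated tumours in blue. Filled points passed the test, open points did not, black bars are class medians, and the muscle forms of complex IV (triangles) lie between -5.15 and -2.16, with Cox6a2 and Cox8b below all other genes and Cox7a1 near Sdhb, Cyc1 and Cycs.

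**Figure D2:**
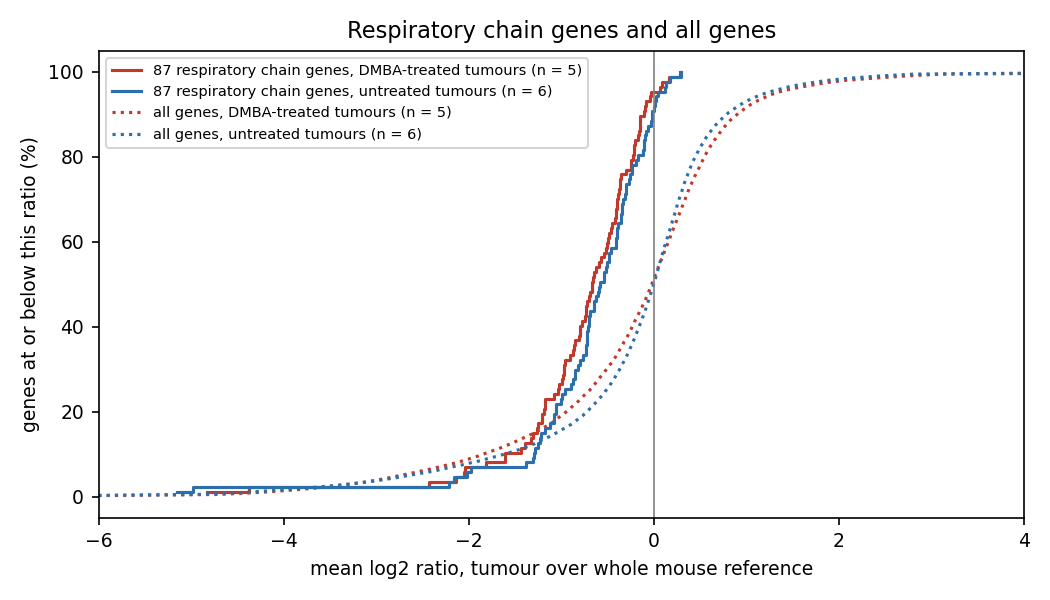
Cumulative share of genes (vertical axis, percent) at or below a mean log2 ratio (horizontal axis) for the 87 genes (solid) and all genes (dotted) of the DMBA-treated (red) and untreated (blue) tumours. The solid curves reach their middle at -0.67 and -0.58, left of the dotted curves.

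The muscle forms of complex IV were among the lowest genes. No signal was used, so whether ratios this low lie near the array background was not tested. Cox6a2 and Cox8b had the lowest means in each group, while Cox7a1 was next in DMBA-treated tumours and, in untreated tumours, lay at a mean of -2.16 beside -2.21 for the complex II gene Sdhb. Cox6a2, the heart and skeletal muscle form of subunit VIa, read -4.24, -4.61, -5.19, -5.27 and -4.87 in DMBA 1 to 5, and from -5.20 to -4.69 with a median of -4.98 in the untreated tumours. Every tumour was thus far below the reference and the ranges of the groups overlapped. The means were -4.83 ± 0.43 (SD, n = 5; limma adjusted p = 1.49e-06) in DMBA-treated tumours, which is 3.50% of the reference level, and -4.98 ± 0.18 (n = 6; limma adjusted p = 4.41e-10) in untreated tumours, or 3.16%.

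Cox8b, the muscle form of subunit VIII, read -4.19, -3.81, -4.47, -4.28 and -5.10 in DMBA 1 to 5, and from -6.26 to -4.29 with a median of -5.06 in untreated tumours. Untreated 2, 4 and 6 lay lowest, at -5.51, -6.26 and -5.91, and the other untreated tumours lay within the range of the DMBA-treated ones. The means were -4.37 ± 0.47 (n = 5; limma adjusted p = 2.69e-06) in DMBA-treated and -5.15 ± 0.86 (n = 6; limma adjusted p = 2.24e-07) in untreated tumours. Cox7a1, the muscle form of subunit VIIa, read -1.74, -2.38, -2.46, -2.45 and -3.11 in DMBA 1 to 5 and from -2.37 to -1.96, median -2.12, in untreated tumours. It was thus less far below the reference than the other muscle forms, at 18.6% of it in DMBA-treated tumours (limma adjusted p = 4.62e-05) and 22.4% in untreated tumours (limma adjusted p = 3.60e-08).

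The ubiquitous partners of these subunits were much closer to the pool. Cox6a1 read -0.88, -0.47, -0.61, -0.95 and -0.82 in DMBA 1 to 5 and from -0.89 to -0.49, median -0.67, in untreated tumours, below the reference in all 11 tumours (limma adjusted p = 0.00114 in DMBA-treated and 8.29e-05 in untreated tumours). Cox7a2 read -0.66, -0.14, -0.84, -0.65 and -0.11 in DMBA 1 to 5 and from -1.01 to -0.04, median -0.33, in untreated tumours. Its calls (limma adjusted p = 0.0255 in DMBA-treated, 0.0296 in untreated tumours) were lost without DMBA 1, 3 or 4 and without untreated 1, 4 or 6. Cox8a was not called, at 0.16, 0.01, 0.20, 0.06 and 0.02 in DMBA 1 to 5 and from -0.09 to 0.41, median 0.05, in untreated tumours (limma adjusted p = 0.437 in DMBA-treated and 0.296 in untreated tumours).

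Within each tumour the muscle form was set against its ubiquitous partner, a difference of log2 ratios that does not move with the centring of an array. Cox6a2 minus Cox6a1 was -4.09 ± 0.46 (SD, n = 5) in DMBA-treated and -4.28 ± 0.22 (n = 6) in untreated tumours, and Cox8b minus Cox8a was -4.46 ± 0.48 and -5.26 ± 0.86 in the same groups. Cox7a1 minus Cox7a2 was smaller, at -1.95 ± 0.72 in DMBA-treated and -1.76 ± 0.42 in untreated tumours. The mean over the 3 pairs lay between -4.06 and -2.93 in single DMBA-treated tumours and between -4.01 and -3.31 in single untreated tumours. The means of these, -3.50 ± 0.41 and -3.77 ± 0.26, differed by less than the SD of the DMBA-treated tumours. That difference was about as large as the SD of the untreated tumours. Markers of the tissues that use the muscle forms were low on the same arrays. All 15 skeletal muscle markers were called lower in each group, with array medians of their ratios from -3.76 to -2.67 in DMBA-treated and from -3.71 to -2.89 in untreated tumours; all 10 heart markers were called lower too, with array medians from -3.34 to -2.93 and from -3.50 to -3.10 in the same groups. All 6 brown fat markers were also called lower in each group, at medians of -3.04 in DMBA-treated and -3.32 in untreated tumours. Eno3, the muscle enolase, was the lowest skeletal muscle marker at -5.69 in DMBA-treated and -6.36 in untreated tumours. Lists of other cell types ranged widely: 6 of 7 adipocyte markers were called lower in each group (medians -4.08 in DMBA-treated and -3.71 in untreated tumours), as were 7 of 7 fibroblast markers (medians -3.53 in DMBA-treated and -3.35 in untreated tumours). Endothelial markers were less low, with 7 of 7 called lower in DMBA-treated and 6 of 7 in untreated tumours (medians -0.84 and -0.93 in those groups). Pericyte markers had 3 of 6 called lower in DMBA-treated and 5 of 6 in untreated tumours, with medians of -0.77 and -1.03 and Notch3 called higher in each group. Macrophage markers had medians of -0.15 in DMBA-treated and 0.30 in untreated tumours. Of these markers, 1 of 4 was called lower and 1 higher in DMBA-treated tumours. In untreated tumours 2 of 5 were called lower and 2 higher. Cd14 was called higher in each group, at 1.93 in DMBA-treated and 2.44 in untreated tumours. Mrc1 was called lower in each, at -2.81 and -2.84. T cell markers had medians of -0.03 in DMBA-treated and -0.18 in untreated tumours, with 2 of 5 called lower in each. The part of these lists in the low ratios of respiratory chain genes was not tested.

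Other tissue forms of complex IV did not share this depth. Cox6b2, a testis form of subunit VIb, read -1.40, -0.96, -1.77, -1.53 and -1.48 in DMBA 1 to 5 and from -1.35 to -0.88, median -1.06, in untreated tumours (limma adjusted p = 0.000117 in DMBA-treated and 7.34e-06 in untreated tumours). Its ubiquitous partner Cox6b1 read -1.14, -1.20, -1.18, -1.35 and -1.20 in DMBA 1 to 5 and from -1.63 to -0.18, median -0.69, in untreated tumours (limma adjusted p = 3.96e-05 in DMBA-treated and 0.00541 in untreated tumours), and untreated 1 and 4 lay at -1.58 and -1.63 and the others between -0.73 and -0.18. Cox7b2, a testis form of subunit VIIb, was not called and spread widely, at 0.36, -0.20, 0.31, -1.06 and -0.54 in DMBA 1 to 5 and from -0.47 to 0.10, median 0.02, in untreated tumours (limma adjusted p = 0.425 in DMBA-treated and 0.464 in untreated tumours). Its partner Cox7b read -0.17, 0.22, -0.50, -0.35 and 0.36 in DMBA 1 to 5 and from -1.08 to -0.33, median -0.49, in untreated tumours (limma adjusted p = 0.649 in DMBA-treated and 0.002 in untreated tumours); the difference between the groups was not tested. Testis markers as a list had medians near 0, -0.01 in DMBA-treated and -0.03 in untreated tumours, with 2 and 4 of 11 called lower and 4 and 2 called higher in the same groups.

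Cox4i2, a form of subunit IV known from lung and oxygen-sensing cells, read 0.17, -0.34, -0.88, 1.22 and 0.20 in DMBA 1 to 5 and from -0.06 to 0.42, median 0.09, in untreated tumours. It was not called in either group (limma adjusted p = 0.840 in DMBA-treated and 0.262 in untreated tumours), and the DMBA-treated tumours spread over more than the whole range of the untreated ones. Cox4i1, the common form, was called lower in each group and read -0.64, -0.37, -0.47, -0.52 and -0.85 in DMBA 1 to 5 and from -1.44 to -0.49, median -0.71, in untreated tumours (limma adjusted p = 0.00353 in DMBA-treated and 0.000544 in untreated tumours).

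**Figure D3:**
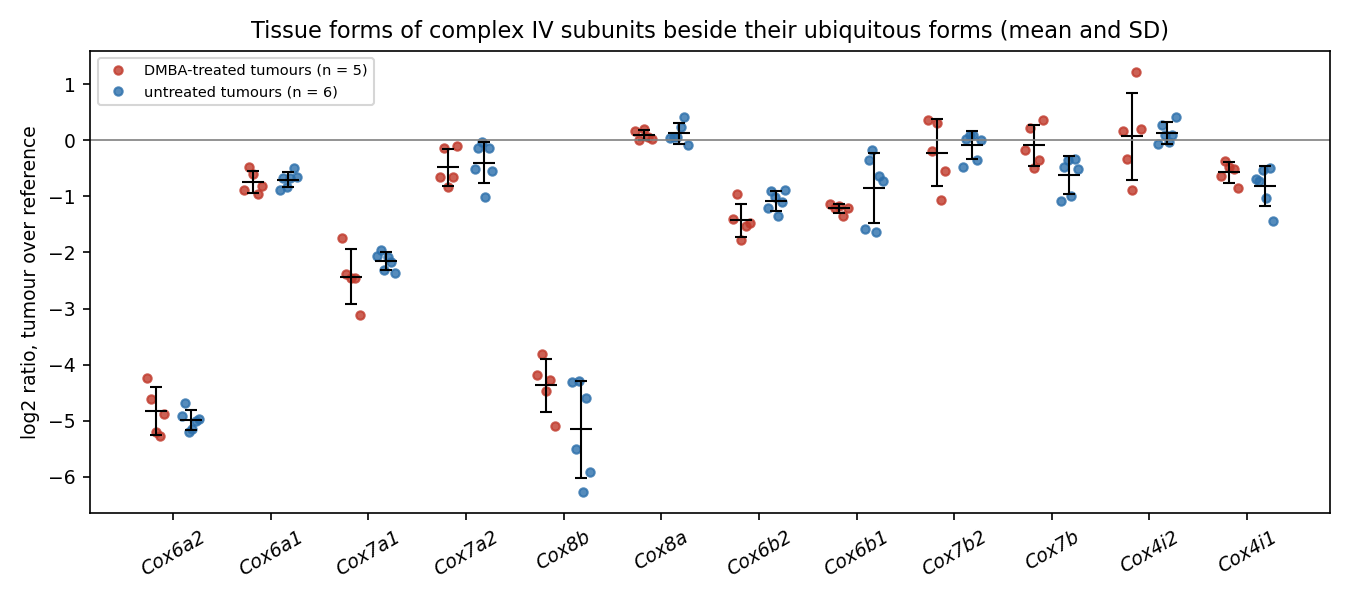
Log2 ratio of tumour over reference (vertical axis) for 6 tissue forms of complex IV subunits, each followed by its ubiquitous form; points are single tumours, DMBA-treated in red left of untreated in blue, with the mean and SD in black. Cox6a2, Cox7a1 and Cox8b fall to means between -5.15 and -2.16, while their partners lie between -0.74 and 0.12.

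Over the 11 ubiquitous complex IV subunits, 8 were called lower in DMBA-treated tumours and 9 in untreated tumours. The lowest were Cox6b1 in DMBA-treated tumours and Cox5a, which lies at the matrix face of the enzyme, in untreated tumours. Cox5a read -1.44, -1.02, -1.49, -1.20 and -0.89 in DMBA 1 to 5 and from -1.66 to -0.89, median -1.32, in untreated tumours (limma adjusted p = 0.000194 in DMBA-treated and 9.93e-06 in untreated tumours). Cox5b, a zinc-binding subunit, read -1.28, -0.41, -1.37, -0.96 and -1.08 in DMBA 1 to 5 and from -1.31 to -0.83, median -1.04, in untreated tumours (limma adjusted p = 0.0013 in DMBA-treated and 7.27e-06 in untreated tumours). Cox6c and Cox7a2l (a factor that joins complexes III and IV into supercomplexes) were called lower in each group and averaged -0.96 and -0.87 in DMBA-treated tumours and -0.73 and -0.41 in untreated tumours. Cox7c, the subunit with the highest mean in DMBA-treated tumours, read 0.04, 0.32, 0.13, 0.49 and 0.39 there and from -1.07 to 0.30, median -0.28, in untreated tumours, and was not called in either group (limma adjusted p = 0.0634 in DMBA-treated and 0.181 in untreated tumours).

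Away from the muscle forms, the lowest ratios belonged to 3 carriers of the electron path. Cyc1, the haem-bearing cytochrome c1 of complex III, read -2.18, -2.04, -2.13, -2.22 and -2.14 in DMBA 1 to 5 and from -2.39 to -1.62, median -1.94, in untreated tumours. The DMBA-treated tumours were very close together, at -2.14 ± 0.07 (n = 5; limma adjusted p = 2.67e-06) or 22.7% of the reference, and the untreated tumours averaged -1.97 ± 0.26 (n = 6; limma adjusted p = 3.01e-07) or 25.5%. Cycs, the somatic cytochrome c that also triggers caspases when released, read -2.35, -1.96, -2.25, -1.89 and -1.79 in DMBA 1 to 5 and from -2.28 to -1.64, median -2.10, in untreated tumours (limma adjusted p = 1.18e-05 in DMBA-treated and 2.86e-07 in untreated tumours).

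Its features read alike, from -2.13 to -1.95 over 3 features in the DMBA table and at -2.08 and -1.95 over 2 features in the untreated table. Sdhb, the iron-sulphur subunit of succinate dehydrogenase and a known tumour suppressor in human, read -2.05, -2.25, -1.98, -1.92 and -2.07 in DMBA 1 to 5 and from -2.46 to -1.96, median -2.19, in untreated tumours. All 11 tumours lay at or below -1.92, and the means were -2.05 ± 0.12 (n = 5; limma adjusted p = 4.29e-06) in DMBA-treated and -2.21 ± 0.17 (n = 6; limma adjusted p = 3.44e-08) in untreated tumours.

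The other complex II subunits were all called lower as well, which makes 4 of 4 in each group. Sdhd, a membrane anchor, read -1.38, -1.98, -1.76, -1.76 and -1.18 in DMBA 1 to 5 and from -1.59 to -0.92, median -1.28, in untreated tumours (limma adjusted p = 8.40e-05 in DMBA-treated and 5.38e-06 in untreated tumours). Sdha, the flavoprotein that oxidises succinate, read -0.78, -1.23, -0.89, -1.30 and -0.72 in DMBA 1 to 5 and from -1.45 to -1.18, median -1.26, in untreated tumours (limma adjusted p = 0.000528 in DMBA-treated and 6.85e-07 in untreated tumours). Its 3 features in the DMBA table spread from -1.44 to -0.41. Sdhc, the other anchor, had the highest ratios of the complex, at -0.65, -0.59, -0.37, -0.66 and -0.28 in DMBA 1 to 5 and from -1.0 to -0.13, median -0.38, in untreated tumours (limma adjusted p = 0.00526 in DMBA-treated and 0.00998 in untreated tumours). Every tumour read lower for Sdhb than for Sdhc on the ratio scale.

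The promoters of members at both ends of the range are shown because NRF-1, a transcription factor of many nuclear genes for mitochondrial proteins, is known for sites of the type GCGCATGC. These letters or their reverse complement GCATGCGC stood in the 250 bases before the start of 10 of the 73 members with a RefSeq promoter (13.7%). The share was 2.56% of all 27025 genes with such a promoter (build GRCm38.p6). Cycs and Sdhb, both near -2, and Ndufa8 and Atp5g2, both near the reference level, hold a match, marked by capitals.
Cycs, chr6:50566570-50566819, minus strand: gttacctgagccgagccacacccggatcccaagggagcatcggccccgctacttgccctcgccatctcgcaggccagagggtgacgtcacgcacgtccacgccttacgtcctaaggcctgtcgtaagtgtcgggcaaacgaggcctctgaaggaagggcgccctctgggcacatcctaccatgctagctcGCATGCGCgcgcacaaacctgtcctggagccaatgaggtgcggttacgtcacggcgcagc
Sdhb, chr4:140961021-140961270, plus strand: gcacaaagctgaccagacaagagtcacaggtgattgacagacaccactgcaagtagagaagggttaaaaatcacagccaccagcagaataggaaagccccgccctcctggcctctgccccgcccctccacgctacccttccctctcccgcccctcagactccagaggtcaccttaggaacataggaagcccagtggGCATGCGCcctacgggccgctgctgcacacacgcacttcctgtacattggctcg
Ndufa8, chr2:36049339-36049588, minus strand: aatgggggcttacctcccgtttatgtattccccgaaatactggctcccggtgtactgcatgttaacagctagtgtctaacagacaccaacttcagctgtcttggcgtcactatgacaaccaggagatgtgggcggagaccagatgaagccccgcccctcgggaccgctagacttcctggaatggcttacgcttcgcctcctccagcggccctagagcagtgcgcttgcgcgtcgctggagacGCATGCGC
Atp5g2, chr15:102671048-102671297, minus strand: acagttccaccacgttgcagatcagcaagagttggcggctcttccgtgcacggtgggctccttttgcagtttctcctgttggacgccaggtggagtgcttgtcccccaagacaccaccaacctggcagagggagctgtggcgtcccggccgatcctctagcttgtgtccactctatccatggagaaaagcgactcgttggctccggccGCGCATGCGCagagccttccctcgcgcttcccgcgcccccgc
The matches begin 60 bases before the start in Cycs, 54 in Sdhb and 8 in Ndufa8, and 2 overlapping matches begin 42 and 40 bases before it in Atp5g2. The 10 members with a match (Atp5g2, Atp5k, Atp5l, Cox6a1, Cycs, Ndufa11, Ndufa6, Ndufa8, Ndufaf4 and Sdhb) ranged from -2.05 to -0.04 in DMBA-treated and from -2.21 to -0.02 in untreated tumours. Their medians were -1.0 in DMBA-treated and -0.78 in untreated tumours, and those of the members without a match were -0.59 and -0.52. The nuclear receptor letters AAGGTCA or TGACCTT stood in 6.85% of members against 4.70% of all genes, and the ETS letters CCGGAAG or CTTCCGG in 16.4% against 7.83%, and overlaps between the motifs were not removed. Members with the nuclear receptor letters had medians of -0.46 in DMBA-treated and -0.65 in untreated tumours, and members without them -0.67 and -0.53 in those groups. For the ETS letters the medians were -0.65 in DMBA-treated and -0.64 in untreated tumours with a match, and -0.66 and -0.48 without. A match describes the letters only.

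Complex III, which passes electrons from ubiquinol to cytochrome c, had 7 of 9 members called lower in DMBA-treated and 8 of 9 in untreated tumours. After Cyc1, the lowest in DMBA-treated tumours were the core protein gene Uqcrc2 and the small subunit gene Uqcrq. In untreated tumours Uqcrq came next at a mean of -1.38, then Uqcrfs1 at -0.99 and Uqcrc2 at -0.96. Uqcrfs1 averaged -0.97 in DMBA-treated tumours and was called lower in each group. Uqcrc2 read -1.57, -1.07, -1.34, -1.31 and -1.35 in DMBA 1 to 5 and from -1.11 to -0.72, median -1.02, in untreated tumours (limma adjusted p = 5.25e-05 in DMBA-treated and 1.26e-05 in untreated tumours), with the groups overlapping only at DMBA 2. Uqcrq read -1.33, -1.05, -1.49, -1.12 and -1.25 in DMBA 1 to 5 and from -1.80 to -0.71, median -1.37, in untreated tumours (limma adjusted p = 6.89e-05 in DMBA-treated and 2.10e-05 in untreated tumours). Its 2 features in the DMBA table averaged -1.62 and -0.88. Uqcrc1, the partner core protein of Uqcrc2, stood close to the reference and read -0.22, 0.00, -0.42, -0.22 and -0.39 in DMBA 1 to 5 and from -0.38 to -0.18, median -0.25, in untreated tumours (limma adjusted p = 0.0766 in DMBA-treated and 0.0153 in untreated tumours). Uqcr11, a small subunit, read -0.10, -0.08, -0.46, -0.19 and -0.40 in DMBA 1 to 5 and from -1.50 to -0.10, median -0.59, in untreated tumours (limma adjusted p = 0.0864 in DMBA-treated and 0.00807 in untreated tumours). Its lowest untreated tumour was untreated 2 and its highest untreated 3.

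**Figure D4:**
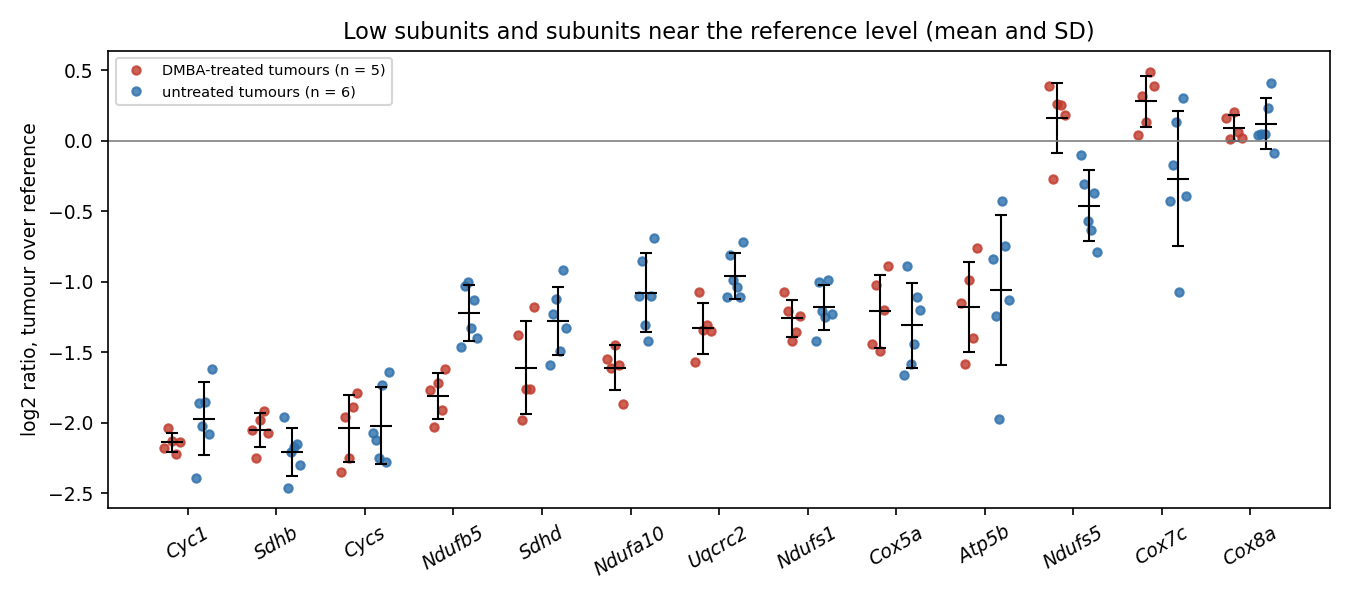
Log2 ratio of tumour over reference (vertical axis) for 10 subunits with low ratios and 3 near the reference level; points are single tumours, DMBA-treated in red left of untreated in blue, with the mean and SD in black. Cyc1, Sdhb and Cycs lie near -2 in every tumour, and Cox8a near 0.

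Complex I, the NADH dehydrogenase, had 27 of 35 members called lower in DMBA-treated and 22 of 35 in untreated tumours, with medians of -0.49 and -0.40. All 6 core subunits measured, which carry the flavin and iron-sulphur clusters or line the quinone path, were called lower in each group. Ndufs1, the largest core subunit, read -1.07, -1.21, -1.42, -1.36 and -1.24 in DMBA 1 to 5 and from -1.42 to -0.99, median -1.22, in untreated tumours (limma adjusted p = 4.70e-05 in DMBA-treated and 2.95e-06 in untreated tumours). Ndufv1, which binds NADH and the flavin, read -0.92, -0.66, -1.02, -0.79 and -1.14 in DMBA 1 to 5 and from -1.33 to -0.76, median -1.17, in untreated tumours (limma adjusted p = 0.000401 in DMBA-treated and 9.67e-06 in untreated tumours). The groups overlapped for both. Ndufs7, next to the quinone site, read -1.05, -0.72, -1.25, -1.39 and -0.97 in DMBA 1 to 5 and from -1.16 to -0.04, median -0.87, in untreated tumours (limma adjusted p = 0.000326 in DMBA-treated and 0.00244 in untreated tumours), with untreated 3 the nearest to 0. The remaining core subunits Ndufs3, Ndufs8 and Ndufv2 averaged between -0.80 and -0.45 in DMBA-treated and between -0.76 and -0.35 in untreated tumours. In DMBA-treated tumours the 2 features of Ndufv2 averaged -0.86 and -0.04.

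Of the 29 other complex I subunits, 21 were called lower in DMBA-treated and 16 in untreated tumours. Ndufb5, a subunit of the membrane arm, was the lowest of the complex in both groups, at -1.77, -2.03, -1.72, -1.91 and -1.62 in DMBA 1 to 5 and from -1.46 to -1.0, median -1.23, in untreated tumours (limma adjusted p = 1.01e-05 in DMBA-treated and 3.64e-06 in untreated tumours). Ndufa10 read -1.55, -1.61, -1.45, -1.59 and -1.87 in DMBA 1 to 5 and from -1.42 to -0.69, median -1.10, in untreated tumours (limma adjusted p = 1.68e-05 in DMBA-treated and 2.84e-05 in untreated tumours). For both genes every DMBA-treated tumour lay below every untreated tumour, but the features of the tables differ. Ndufs6, a zinc-binding subunit, read -1.07, -1.28, -1.20, -1.33 and -1.07 in DMBA 1 to 5 and from -1.59 to -0.51, median -0.58, in untreated tumours (limma adjusted p = 5.56e-05 in DMBA-treated and 0.00143 in untreated tumours). Ndufc1 read -0.47, -0.21, -0.66, -0.21 and -0.52 in DMBA 1 to 5 and from -1.82 to -0.63, median -0.71, in untreated tumours (limma adjusted p = 0.0164 in DMBA-treated and 0.000724 in untreated tumours). The DMBA call of Ndufc1 was lost without DMBA 1 or 3. For Ndufs6 and Ndufc1, untreated 1 and 4 lay lowest of the untreated tumours. Ndufa4, a subunit once placed in complex I and now known in complex IV, averaged -0.85 in DMBA-treated and -0.65 in untreated tumours.

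At the upper end of complex I, Ndufs5 read 0.39, -0.27, 0.26, 0.25 and 0.18 in DMBA 1 to 5 and from -0.79 to -0.10, median -0.47, in untreated tumours. It was not called in DMBA-treated tumours (limma adjusted p = 0.290) and was called lower in untreated tumours (limma adjusted p = 0.00446), and its 2 features in the DMBA table averaged -0.18 and 0.51. Ndufa3 ran the other way, at -0.30, -0.17, -0.59, -0.84 and -0.70 in DMBA 1 to 5 (limma adjusted p = 0.0117) and from -0.35 to 0.66, median 0.34, in untreated tumours (limma adjusted p = 0.0806). Without untreated 4, Ndufa3 averaged 0.43 and was called higher in untreated tumours (limma adjusted p = 0.00854). Ndufa3 rests on 1 feature in each table, and these features are annotated to different transcript records. Ndufa13, Ndufa2, Ndufb2, Ndufb7, Ndufb11 and Ndufv3 were called in neither group, with means between -0.21 and 0.03. In DMBA-treated tumours the features of Ndufab1, the mitochondrial acyl carrier protein, ranged from -1.25 to 0.22 over 4 features, and those of Ndufc1 from -0.88 to 0.38 over 3.

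Among the assembly factors of complex I, 4 of 4 were called lower in DMBA-treated and 3 of 4 in untreated tumours. Ndufaf4 read -1.20, -1.35, -0.90, -0.59 and -1.15 in DMBA 1 to 5 and from -1.81 to -0.69, median -1.22, in untreated tumours (limma adjusted p = 0.000584 in DMBA-treated and 4.44e-05 in untreated tumours). Its 3 features in the DMBA table averaged between -1.41 and -0.62. Ndufaf3 read -0.23, -0.45, -0.24, -0.68 and -0.39 in DMBA 1 to 5 and from -0.12 to 0.43, median 0.21, in untreated tumours (limma adjusted p = 0.0163 in DMBA-treated and 0.116 in untreated tumours), with no overlap between the groups; its DMBA call was lost without DMBA 4. Ndufaf1 averaged -0.86 in DMBA-treated and -0.69 in untreated tumours, and Ndufaf5 averaged -0.98 and -0.31 in the same groups. The untreated call of Ndufaf5 was lost without untreated 1, 3 or 5.

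Complex V, the ATP synthase, had 12 of 17 members called lower in each group, with medians of -0.69 in DMBA-treated and -0.48 in untreated tumours. Atp5b, the catalytic beta subunit of the F1 head, read -1.15, -1.58, -0.99, -1.40 and -0.76 in DMBA 1 to 5 and from -1.97 to -0.43, median -0.99, in untreated tumours (limma adjusted p = 0.000393 in DMBA-treated and 0.000705 in untreated tumours). Its 3 features in the DMBA table averaged between -1.51 and -0.72. Atp5a1, the alpha subunit that alternates with beta in the head, read -0.69, -0.73, -0.72, -0.76 and -0.54 in DMBA 1 to 5 (limma adjusted p = 0.000672) and from -0.15 to 0.38, median 0.02, in untreated tumours (limma adjusted p = 0.696). The groups did not overlap for Atp5a1, which rests on 3 features in the DMBA table and 1 in the untreated table.

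Of the 12 stalk and membrane subunits, 9 were called lower in DMBA-treated and 10 in untreated tumours. Atp5mpl, a small proteolipid, read -1.90, -0.96, -1.77, -1.22 and -1.10 in DMBA 1 to 5 and from -1.50 to -0.43, median -0.81, in untreated tumours (limma adjusted p = 0.000411 in DMBA-treated and 0.000747 in untreated tumours). Atp5k, the e subunit that pairs synthase dimers, read -1.40, -1.38, -1.54, -1.71 and -0.51 in DMBA 1 to 5 and from -1.85 to -0.80, median -1.07, in untreated tumours (limma adjusted p = 0.000822 in DMBA-treated and 8.58e-05 in untreated tumours). The 3 genes Atp5g1, Atp5g2 and Atp5g3 encode the same mature c-ring subunit. Their means were -0.70, -0.08 and -0.80 in DMBA-treated tumours and -0.35, -0.10 and -0.65 in untreated tumours, and the untreated call of Atp5g1 was lost without untreated 1 or 4. Atp5g2 was called in neither group and read 0.10, 0.06, -0.12, -0.39 and -0.05 in DMBA 1 to 5 and from -0.53 to 0.25, median 0.02, in untreated tumours (limma adjusted p = 0.559 in DMBA-treated and 0.509 in untreated tumours). Atp5j, a coupling factor, was not called either, at -0.21 ± 0.21 in DMBA-treated (n = 5; limma adjusted p = 0.150) and -0.03 ± 0.23 in untreated tumours (n = 6; limma adjusted p = 0.826).

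Side by side, the DMBA mean minus the untreated mean had a median of -0.08 over the 87 genes and ran from -0.93 (Ndufa11) to 0.78 (Cox8b). For all 16351 shared genes the median was -0.01 and the range -6.49 to 4.84. No overlap between the groups was found for 6 of the 87 genes, beside 18.2% of all shared genes. These were Atp5a1, Ndufa10, Ndufa6, Ndufaf3, Ndufb5 and Ndufs8, each lower in DMBA-treated tumours. With a difference of means of at least 1 asked as well, 0 of the 87 genes stood apart, beside 8.34% of all shared genes. Ndufa6 read -0.58, -0.87, -0.72, -1.20 and -0.66 in DMBA 1 to 5 (limma adjusted p = 0.00117) and from -0.19 to 0.19, median -0.01, in untreated tumours (limma adjusted p = 0.890). Ndufs8, a core iron-sulphur subunit, was called lower in each group and read -0.86, -0.85, -0.62, -0.62 and -1.07 in DMBA 1 to 5 and from -0.47 to -0.22, median -0.35, in untreated tumours (limma adjusted p = 0.000707 in DMBA-treated and 0.0039 in untreated tumours). Ndufa11 read -1.38, -0.82, -1.04, -1.09 and -1.51 in DMBA 1 to 5; in untreated tumours only untreated 1 and 4 were clearly below 0, at -1.29 and -0.75, and the others lay between 0.02 and 0.28.

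Single tumours differed in their medians over the ubiquitous subunits. The median over the 77 ubiquitous subunits was -0.65, -0.47, -0.72, -0.68 and -0.52 in DMBA 1 to 5, with 70 to 73 of the 77 below 0 in each. In untreated 1 to 6 it was -0.69, -0.52, -0.47, -0.72, -0.44 and -0.43, with 64 to 72 below 0. Untreated 1 and 4 thus stood lowest in their group. They were the lowest 2 of the 6 tumours for 25 of the 77 subunits (32.5%), beside 9.53% of all genes in that table; the subunits with the widest gap to the other tumours were Cox6b1 at 0.85, Ndufa11 at 0.77, and Ndufc1 and Ndufs6 at 0.70 each. This count was made after the values were seen. Taken singly, untreated 1 was the lowest for 30 of the 77 subunits, beside 12.6% of all genes. Untreated 4 was the lowest for 20, beside 20.8% of all genes. With both tumours left out, 55 of the 87 genes were called lower and 1 (Ndufa3) higher, and the median of the ubiquitous subunits was -0.47.

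**Figure D5:**
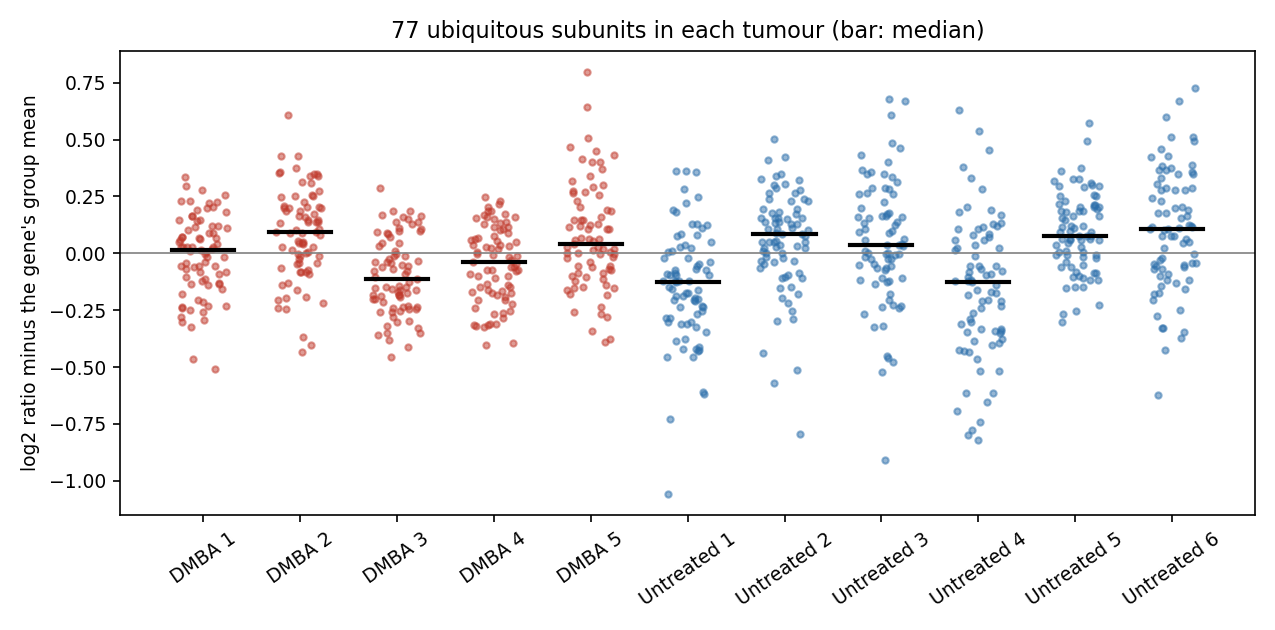
Log2 ratio of each of the 77 ubiquitous subunits minus the mean of that gene in its group (vertical axis), for DMBA 1 to 5 in red and untreated 1 to 6 in blue; black bars are medians. The bars of untreated 1 and 4 lie at -0.13, below the other untreated tumours at 0.04 to 0.11.

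Other genes of mitochondrial energy metabolism differed by list. Of 12 tricarboxylic acid cycle genes measured, 10 were called lower and 1 higher in each group, with medians of -1.06 in DMBA-treated and -1.07 in untreated tumours. The lowest were Dld, the dihydrolipoamide dehydrogenase, at -2.05 ± 0.20 in DMBA-treated tumours (n = 5; limma adjusted p = 7.96e-06), and Sucla2, the ATP-linked beta subunit of succinyl-CoA ligase, at -1.90 ± 0.33 in untreated tumours (n = 6; limma adjusted p = 1.08e-06). The higher member was Suclg2, the GTP-linked counterpart of Sucla2, at 0.36 ± 0.18 in DMBA-treated (n = 5; limma adjusted p = 0.0238) and 0.80 ± 0.50 in untreated tumours (n = 6; limma adjusted p = 0.00291). Of 9 genes for carriers and kinases that exchange ATP and ADP, 7 were called lower (77.8%) and 0 higher in DMBA-treated tumours. In untreated tumours 6 were called lower (66.7%) and 2 higher. Ckmt2, the creatine kinase of muscle mitochondria, was lowest, at -4.82 ± 0.38 in DMBA-treated (n = 5; limma adjusted p = 1.29e-06) and -4.92 ± 0.19 in untreated tumours (n = 6; limma adjusted p = 5.04e-10), while Ckmt1, the ubiquitous form, averaged 0.24 and 0.54 in the same groups. Slc25a4, the muscle and heart form of the ADP/ATP carrier, averaged -2.06 in DMBA-treated and -1.51 in untreated tumours, and Slc25a5, the form of dividing cells, -0.47 in each group. The highest was Vdac1, an outer membrane channel, at 0.97 in untreated tumours (limma adjusted p = 1.43e-05). In DMBA-treated tumours Vdac1 averaged -0.28 and was not called (limma adjusted p = 0.172). Ckmt1 was called higher in untreated tumours (limma adjusted p = 0.0382) but not in DMBA-treated tumours (limma adjusted p = 0.0834).

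Of 16 regulators of the respiratory chain, 4 were called lower and 4 higher in DMBA-treated tumours, where 31.7% of all genes were lower and 26.1% higher. In untreated tumours 7 were called lower and 3 higher, where 32.1% of all genes were lower and 28.8% higher. The DMBA counts lie near the share of all genes. Ppargc1b, a coactivator of mitochondrial genes, was low at -2.68 ± 0.31 in DMBA-treated (n = 5; limma adjusted p = 6.51e-06) and -2.34 ± 0.21 in untreated tumours (n = 6; limma adjusted p = 3.84e-08). Its relative Ppargc1a averaged 0.12 in DMBA-treated tumours (limma adjusted p = 0.541) and -0.49 in untreated tumours (limma adjusted p = 0.0256). Esrra, the receptor they act with, averaged 0.32 in DMBA-treated (limma adjusted p = 0.0496) and -0.08 in untreated tumours (limma adjusted p = 0.577). Nrf1, which encodes NRF-1, averaged 0.24 ± 0.07 and -0.12 ± 1.19, Gabpa -0.18 and -0.07, and Tfam, the mitochondrial DNA packaging factor, -0.12 and -0.46 in the same groups; of these only Tfam in untreated tumours was called (limma adjusted p = 0.0130). The highest regulators were Myc at 1.08 in DMBA-treated and Gabpb1 at 1.31 in untreated tumours (limma adjusted p = 0.00208 for Myc and 9.46e-06 for Gabpb1).

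Among assembly factors of complex IV and cytochrome maturation, 8 of 19 measured genes were called lower and 4 higher in DMBA-treated tumours, and 8 of 17 lower and 1 higher in untreated tumours. The shares called lower were 42.1% in DMBA-treated and 47.1% in untreated tumours, beside 31.7% and 32.1% of all genes in those groups. Cox17, a copper carrier to complex IV, was the highest in DMBA-treated tumours at 1.59 ± 0.33 (n = 5; limma adjusted p = 9.56e-05) but read -0.03 ± 0.75 in untreated tumours (n = 6; limma adjusted p = 0.935). Cox20, a chaperone of complex IV assembly, was the highest in untreated tumours at 0.42. Coa7 was lowest in DMBA-treated tumours at -1.10 (limma adjusted p = 0.000146), and Hccs, which attaches haem to cytochromes c and c1, in untreated tumours at -1.32 (limma adjusted p = 1.95e-05). For complexes II, III and V, 8 of 13 assembly factors were called lower and 2 higher in DMBA-treated tumours, and 3 lower and 4 higher in untreated tumours (61.5% lower in DMBA-treated and 23.1% in untreated tumours), with Tmem70 lowest at -1.12 in DMBA-treated, Sdhaf1 lowest at -0.84 in untreated tumours, and Uqcc3 and Bcs1l highest at 0.59 and 0.53 in those groups. Of 11 coenzyme Q genes, 5 were called lower and 2 higher in DMBA-treated and 4 lower and 3 higher in untreated tumours (45.5% lower in DMBA-treated and 36.4% in untreated tumours), from Coq8a at -1.07 and -1.86 to Coq8b at 0.92 in DMBA-treated and Coq4 at 0.54 in untreated tumours.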

How the data were processed

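The authors deposited log2 ratios of tumour over whole mouse reference for 2-colour arrays, 5 DMBA-treated tumours in a table of 45220 features and 6 untreated tumours in a table of 22575, with no value missing. Background correction, normalization and filters: not stated in any label or header used; base 2 was inferred from the range of values (-10.70 to 8.37). Array medians lay between -0.013 and 0.008. No signal was used, so the number of arrays limits the precision. Features with a single symbol in the platform annotation (33653 and 18658) were averaged per gene and array, with symbols matched by Entrez gene identifier to RefSeq on GRCm38.p6 (33517 and 18445 matched, 0 symbols changed). Probe sequences were not used here, so cross-reading of pseudogenes was not tested.

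Mean log2 ratios were tested against 0 separately per table (R 4.3.3; limma 3.58.1, lmFit and eBayes; two-sided, Benjamini-Hochberg over all genes of the table, called at an adjusted p under 0.05), tested on simulated data first. The members and lists were chosen with earlier results of these data known, and the core, stalk and motif groupings after their values were seen. All members could be named; values of single DMBA-treated tumours, with the lowest, median and highest untreated tumour, are given for tissue forms and their partners, for the highest and lowest members of each class, for members without overlap between groups and for members at least 2-fold from the reference; of other lists, the highest and lowest called genes and 6 regulators are named. Alternatives were 1 feature per gene, the median of features, quantile normalization, exact zeros as missing, a test against 1.5-fold, genes of both tables only, DMBA 3 and 4 (whose titles share a number) averaged, and each tumour left out.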

Additional observations from a re-analysis of the deposited data

Results flagged for a closer look

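In 9 of 174 combinations of a gene and a group, 1 tumour lay far from the others by Dixon's 95% limit; chance flags about 1 in 20. DMBA 5 was high for Atp5g3 at -0.15 (others -1.12 to -0.85), Atp5k at -0.51 (others -1.71 to -1.38) and Ndufaf5 at -0.27 (others -1.29 to -1.08). DMBA 2 was high for Ndufa9 at -0.35 (others -0.80 to -0.68), and DMBA 4 low for Cox6b1 at -1.35 (others -1.20 to -1.14). Untreated 4 was low for Ndufs4 at -1.14 (others -0.69 to -0.56) and high for Ndufb9 at -0.18 (others -0.96 to -0.71). Untreated 6 was low for Atp5pb at -0.69 (others -0.35 to -0.19), and untreated 2 high for Ndufb7 at 0.07 (others -0.29 to -0.21). Atp5pb rests on 2 features in untreated tumours, which averaged -0.74 and 0.05.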

How the results depend on the processing

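Against 1.5-fold, the genes called lower fell to 26 in DMBA-treated and 21 in untreated tumours, since this test asks for larger ratios. The shares of all genes called lower by this test were 18.2% and 16.3% in those groups. Leaving out 1 tumour gave 59 to 66 genes called lower and 0 higher in DMBA-treated tumours, and 58 to 64 lower and 0 to 1 higher in untreated tumours, the 1 being Ndufa3 without untreated 4. Without both untreated 1 and 4, an alternative chosen after seeing the data, 1 was higher. Of 67 and 63 calls, 58 in each group held with every tumour left out in turn. The other alternatives gave 60 to 67 genes lower in DMBA-treated and 63 to 64 in untreated tumours. The 60 came with DMBA 3 and 4 averaged. With a difference of 0.5 between the group means, 5 genes stood apart, beside 16.9% of shared genes; with 1 tumour left out the count at a difference of 1 was 0 to 1, the 1 being Ndufa11 without untreated 1. No called ratio changed sign under any of these alternatives. Direction was read only for called genes. No paired analysis was possible because the tumour numbers follow accession order and pair no samples across groups.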

Other observations

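The genes that fit the names but lie in 1 table only were not counted. In DMBA-treated tumours (n = 5) the complex I assembly factors Ndufaf6 and Ndufaf7 were called lower, at -1.24 ± 0.18 and -0.88 ± 0.37 (limma adjusted p = 7.50e-05 for Ndufaf6 and 0.00243 for Ndufaf7), as was the subunit gene Ndufb6 at -0.56 ± 0.08 (limma adjusted p = 0.00170), while Ndufaf2 and the testis form Cox8c averaged -0.09 and 0.16 and were not called. In untreated tumours (n = 6) Ndufa4l2, a hypoxia-induced relative of Ndufa4, was called lower at -0.79 ± 0.27 (limma adjusted p = 0.000211).

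Ribosomal protein families were chosen by symbol after the data were seen. Of all genes, 31.7% were called lower and 26.1% higher in DMBA-treated tumours, and 32.1% lower and 28.8% higher in untreated tumours. Of mitochondrial ribosomal protein genes, 34 of 78 were called lower and 13 higher in DMBA-treated tumours (median -0.22), and 28 of 75 lower and 15 higher in untreated tumours (median -0.20). Of cytosolic ribosomal protein genes, 21 of 72 were called lower and 9 higher in DMBA-treated tumours (median -0.08), and 31 of 65 lower and 11 higher in untreated tumours (median -0.16). The shares called lower were 43.6% in DMBA-treated and 37.3% in untreated tumours for the mitochondrial family, and 29.2% in DMBA-treated and 47.7% in untreated tumours for the cytosolic family, so the cytosolic share in DMBA-treated tumours lay near that of all genes. Untreated 1 and 4 were the lowest 2 tumours for 21.5% of the cytosolic and 13.3% of the mitochondrial ribosomal protein genes, beside 32.5% of the ubiquitous respiratory chain subunits and 9.53% of all genes.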
